A study of Drosophila melanogaster with 15 samples.

Results

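Acetyl groups on histone tails are added by acetyltransferases, which use acetyl-CoA as donor, and removed by deacetylases; acetylated lysines loosen contacts between histones and DNA and are bound by bromodomain proteins. In neurons these enzymes act on genes whose transcription follows activity, and several of them have been studied for roles in learning. The description here covers 9 Drosophila genes for such enzymes out of 17559 genes counted. They were picked by name and function rather than by a threshold on a measured value, with earlier results of these data known. The 4 acetyltransferases were nej, the fly CBP/p300 coactivator; Gcn5, the catalytic subunit of the SAGA and ATAC complexes; Tip60, the catalytic subunit of the Tip60 chromatin remodelling complex; and chm, a MYST family enzyme. The 5 deacetylases were HDAC1, known as Rpd3, the catalytic subunit of several corepressor complexes; HDAC3, the partner of the corepressor Smr; HDAC4, a class IIa enzyme that moves between cytoplasm and nucleus; HDAC6, which acts largely on tubulin; and Sirt1, which needs NAD.

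RNA was sequenced from nuclei of the mushroom body, the insect centre for associative memory. Nuclei carried the UAS-unc84::GFP tag, and tagged nuclei were captured from pools of 50 to 60 heads by INTACT, an isolation of nuclei with antibody-coated beads. Every fly had UAS-Dicer2, which strengthens RNA interference, and the R14H06-Gal4 driver, which is active in Kenyon cells, the intrinsic neurons of the mushroom body. The trxKD flies also carried P{GD4502}v37715, an RNAi transgene against the histone methyltransferase trx, whereas controls carried no RNAi transgene. The 15 libraries fell into 4 trained trxKD, 3 naïve trxKD, 4 trained control and 4 naïve control libraries. The labels used here do not give age, sex, the training protocol or the time of collection.

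Sequencing depth, as the sum of gene counts, ran between 14154045 and 45976562 per library (median 24250938). The targeted gene trx stood at 499 to 550 CPM (counts scaled to library size, with TMM factors) in trained trxKD libraries and 562 to 593 CPM in trained control libraries, a log2 fold change of -0.15 (SE 0.05, adjusted p = 0.0744, edgeR). In naïve libraries it stood at 525 to 546 CPM in trxKD and 566 to 609 CPM in controls, a log2 fold change of -0.11 that did not pass the test (SE 0.06, adjusted p = 0.304, edgeR). The nuclear trx level thus differed little between the genotypes, and it gives no measure of the protein. Kenyon cell markers were high: all 12 were detected, and their summed level was 16281 to 18524 CPM in trained trxKD, 14435 to 15475 CPM in naïve trxKD, 13836 to 15578 CPM in trained control and 12976 to 15415 CPM in naïve control libraries. Markers of other head cells were detected as well. The photoreceptor sum (8 genes) spanned 6919 to 12641 CPM in trxKD and 7942 to 14740 CPM in control libraries, the glial sum (8 genes) 824 to 1079 CPM and 893 to 1128 CPM, and the fat body and hemocyte sum (8 genes) 2900 to 4581 CPM and 3485 to 6570 CPM. The glial genes moody and alrm, the photoreceptor gene Arr2 and the octopaminergic gene Tdc2 had 0 CPM in every library. Their sharing of exonic bases with other genes is not given here, so these 0 values are not read as levels. In pooled nuclei, fewer cells of a type and less RNA per cell cannot be told apart. Among trained trxKD libraries, replicate 3 held the lowest value of its group for 4 of the 8 measured enzymes, as did replicate 4 among naïve controls, and replicate 1 of the 3 naïve trxKD libraries held it for 6.

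HDAC3 could not be measured with these counts. Its count was 0 in all 15 libraries. The gene lies at 3R:5472810-5474600 on the minus strand (BDGP6.54 annotation), and all of its 1660 exonic bases also belong to CG45100, which likewise had 0 counts in every library. Of 431 genes whose exonic bases all lay in another gene of the same strand, 424 (98.4%) had 0 counts in every library, against 2540 of 11946 genes (21.3%) that shared no exonic base. The 0 of HDAC3 is not read as a level, and no value or comparison is given for it. Parts of other members were shared too, at 21.1% of exonic bases for HDAC6, 21% for Tip60, 13.4% for Sirt1, 8% for HDAC1 and 1.01% for Gcn5, while nej, chm and HDAC4 shared none. For Gcn5, Tip60, HDAC1, HDAC6 and Sirt1 the sharing was with genes of the opposite strand. A further 129 genes had all exonic bases in a gene of the opposite strand and none in one of the same strand. Of these, 127 (98.4%) had 0 counts in every library, the same share as for the same strand. The strand setting itself is not given in the sources used here, so reads from such overlaps cannot be assigned with certainty.

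In the same annotation the acetyltransferase genes lie at X:9665442-9687066 (nej), 3L:12521129-12524014 (Gcn5), X:4114800-4117487 (Tip60) and 2L:7412417-7422736 (chm). The other deacetylase genes lie at 3L:4626734-4629467 (HDAC1), X:13262687-13285632 (HDAC4), X:15333310-15340360 (HDAC6) and 2L:13165564-13169551 (Sirt1). All are protein-coding, and values refer to the whole gene.

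The 8 measured enzymes covered a wide span of nuclear levels. Per kilobase of exon, averaged over 15 libraries, nej was highest at 55.6 ± 1.58 CPM per kb (SD), followed by HDAC4 at 38.1 ± 2.02, Sirt1 at 21.8 ± 1.47, HDAC6 at 17.4 ± 1.41, Gcn5 at 13.3 ± 1.04, HDAC1 at 11.1 ± 1.74, chm at 9.89 ± 0.903 and Tip60 at 6.39 ± 0.658. The levels of nej and HDAC4 were each apart from those of the next gene in every library. Across libraries the ranges of Sirt1 and HDAC6, of Gcn5 and HDAC1, and of HDAC1 and chm overlapped. Within a library, Sirt1 was nonetheless above HDAC6 in 15 of 15 libraries, Gcn5 above HDAC1 in 14 and HDAC1 above chm in 12. With shared bases left out of the length, the order of the 8 genes was unchanged, with Tip60 at 8.08 and HDAC6 at 22 CPM per kb. On this scale nej was at percentile 89.7 of 9554 genes tested with a known exon length, and Tip60 at percentile 45.1.

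**Figure D1:**
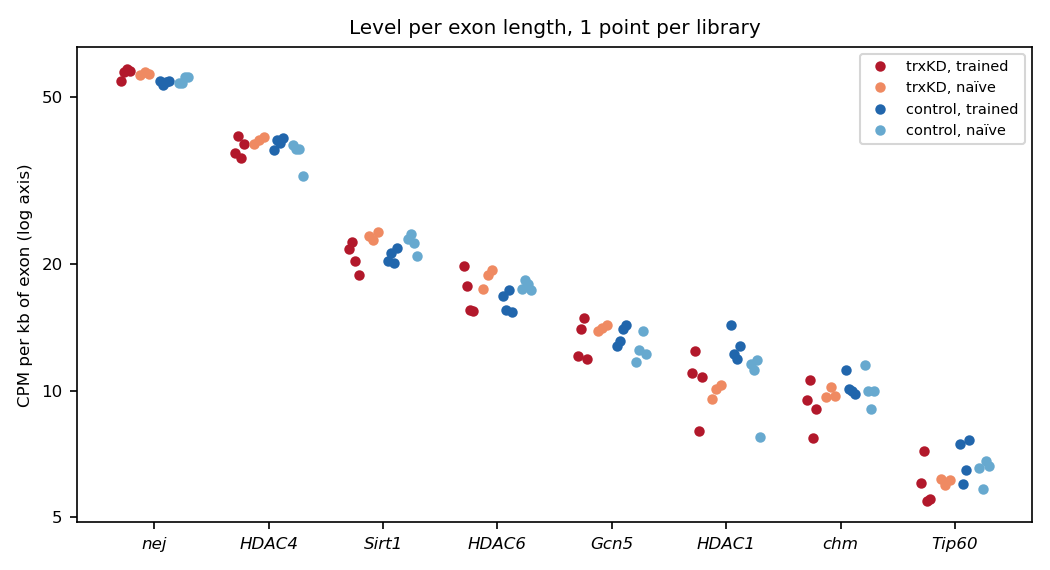
Level of the 8 measured enzymes in CPM per kb of exon (log axis), 1 point per library, coloured by group. Points of nej sit between 53.3 and 58.4 CPM per kb, above every point of HDAC4, and those of Tip60 between 5.47 and 7.64.

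The enzymes also differed in how much they varied. Over the 15 libraries nej spanned 849 to 931 CPM, a coefficient of variation of 2.84%, which placed it at percentile 0.161 among 5606 genes with a mean of at least 10 CPM (median 10.7%). These genes were not matched to nej in level, and genes with fewer counts carry more counting error. HDAC4 followed at 5.3%. HDAC1 varied most among the 8, at 15.7%, with a highest-to-lowest ratio of 1.84. Counting error accounted for an expected 0.721% in nej, 4.45% in HDAC1 and 5.48% in Tip60, so the larger spread of HDAC1 exceeded counting error.

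Whether training altered the acetylation enzymes was asked first in control flies. None of the 8 measured enzymes passed the test there (0 of 8 at adjusted p under 0.1 by edgeR, DESeq2 or limma voom), while 4.38% of 9255 genes did. At an unadjusted p under 0.05 edgeR counted 1 of the 8, against 13.5% of all genes. That gene was HDAC6, with 88.2, 82, 91.6 and 80.8 CPM in trained controls and 91.8, 96.1, 94.1 and 91.6 CPM in naïve controls. The groups met at 91.6 CPM, and the log2 fold change was -0.14 (SE 0.06, adjusted p = 0.329, edgeR). For Sirt1, trained controls had 77.7, 81, 76.7 and 83 CPM and naïve controls 87.8, 90.1, 85.5 and 79.8 CPM. Only naïve control replicate 4 reached into the trained range, and the log2 fold change was -0.12 (SE 0.06, adjusted p = 0.424, edgeR).

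HDAC1 had the largest estimate for training in controls. It stood at 30.4, 25.9, 25.4 and 27.2 CPM in trained controls, against 24.7, 23.8, 25 and 16.5 CPM in naïve controls. All trained libraries were above all naïve ones, as for 4.85% of the genes tested, with a log2 fold change of 0.26 (SE 0.13, 95% interval -0.01 to 0.54, adjusted p = 0.4, edgeR). Naïve control replicate 4 was far below the other 3 libraries, and without it the estimate was 0.13. The remaining enzymes moved by 0.10 or less. Gcn5 averaged 37.5 ± 1.99 CPM in trained and 34.8 ± 2.57 CPM in naïve controls (SD, n = 4 each), Tip60 16.6 ± 1.92 and 15.6 ± 1.03 CPM, chm 36.7 ± 2.12 and 36.3 ± 3.65 CPM, HDAC4 281 ± 7.93 and 264 ± 19.5 CPM, and nej 863 ± 9.76 and 874 ± 15.5 CPM.

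**Figure D2:**
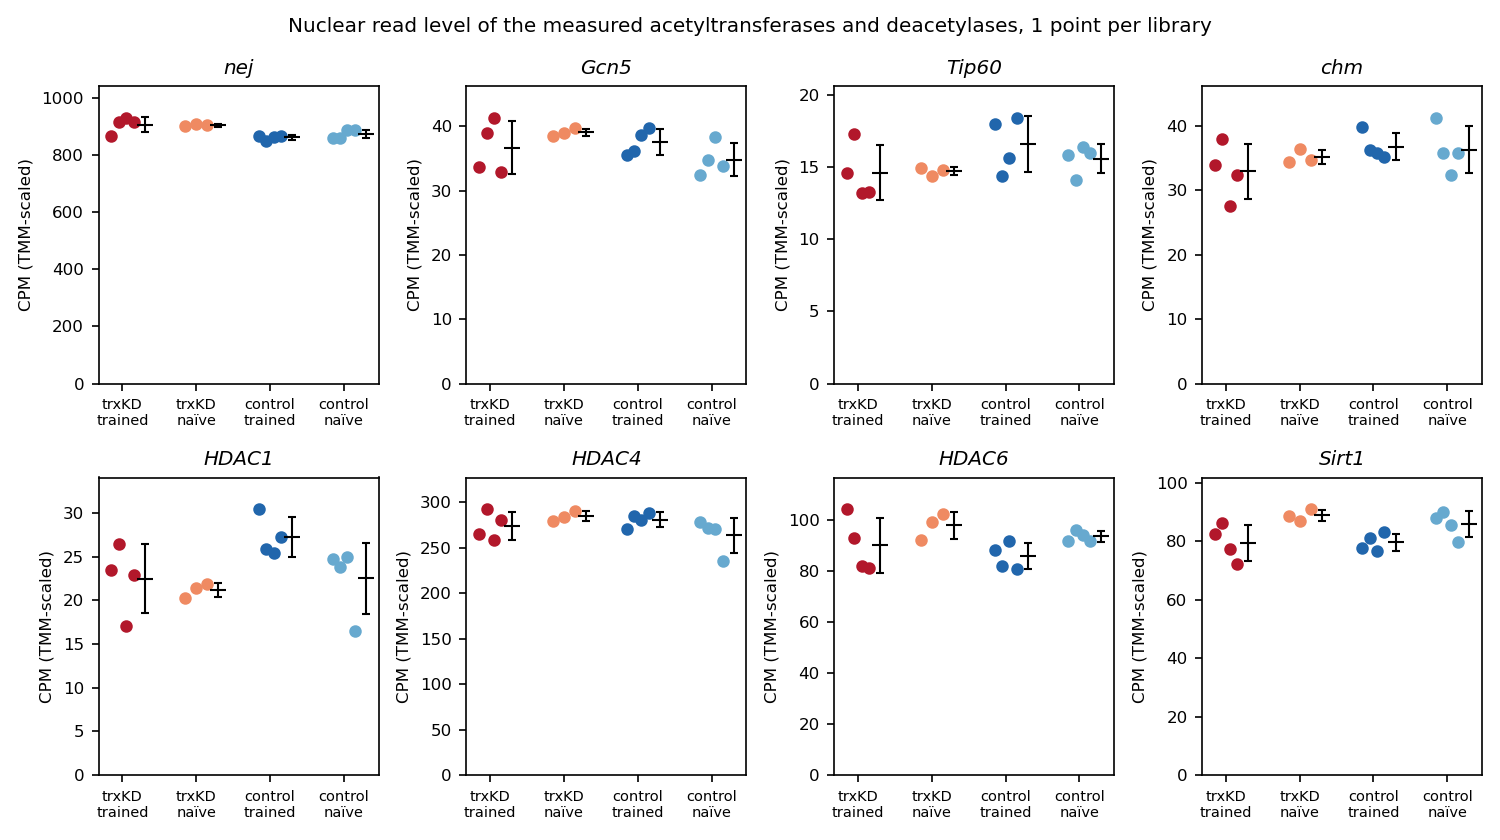
TMM-scaled CPM of the 8 measured enzymes (linear axes from 0), 1 point per library in 4 groups, with group mean and SD as a bar beside the points. HDAC1 in naïve control replicate 4 lies at 16.5 CPM, below the other naïve controls at 23.8 to 25 CPM, whereas the nej points lie between 849 and 931 CPM.

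In trxKD flies training again gave no call among the 8 enzymes by edgeR, DESeq2 or limma voom, beside 0.534% of 9370 genes by edgeR; 0 of the 8 had an unadjusted p under 0.05 in edgeR, against 12% of all genes. Sirt1 came closest, with 82.5, 86.2, 77.2 and 72.1 CPM in trained trxKD and 88.8, 87 and 90.9 CPM in naïve trxKD. Every trained value was below every naïve value, a separation in that direction that 5.22% of genes showed, and the log2 fold change was -0.16 (SE 0.07, 95% interval -0.32 to 0.01, adjusted p = 0.43, edgeR). The other deacetylases overlapped between trained and naïve trxKD. HDAC6 averaged 89.9 ± 10.8 CPM in trained (SD, n = 4) and 97.6 ± 5.16 CPM in naïve trxKD (SD, n = 3), HDAC4 274 ± 15 and 284 ± 5.21 CPM, and HDAC1 22.4 ± 3.93 and 21.2 ± 0.813 CPM. So did the acetyltransferases, with nej at 907 ± 27.1 CPM in trained and 905 ± 5.06 CPM in naïve trxKD, Gcn5 at 36.7 ± 4.12 and 39.1 ± 0.637 CPM, chm at 32.9 ± 4.3 and 35.2 ± 1.1 CPM, and Tip60 at 14.6 ± 1.9 and 14.7 ± 0.253 CPM.

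The trx knockdown was compared with controls in naïve flies next. Here 14.2% of 9419 genes were called, but 0 of the 8 enzymes by edgeR, DESeq2 or limma voom, and 0 with an unadjusted p under 0.05, against 24% of all genes. In 3 of the 8 every trxKD library was above every control library, while 11.7% of genes were separated in that direction. Gcn5 stood at 38.5, 38.9 and 39.7 CPM in naïve trxKD and 32.4, 34.7, 38.4 and 33.8 CPM in naïve controls. The gap between the groups was narrow, since naïve control replicate 3 lay just below the trxKD range, and the log2 fold change was 0.17 (SE 0.08, adjusted p = 0.227, edgeR). HDAC4 stood at 279, 284 and 290 CPM in naïve trxKD and 278, 271, 270 and 235 CPM in naïve controls, with a log2 fold change of 0.11 (SE 0.07, adjusted p = 0.329, edgeR). For nej the values were 901, 911 and 905 CPM in naïve trxKD and 862, 860, 888 and 888 CPM in naïve controls, with a log2 fold change of 0.05 (SE 0.06, adjusted p = 0.617, edgeR). The 95% intervals of all 3 genes included 0, at -0.01 to 0.34 for Gcn5, -0.03 to 0.26 for HDAC4 and -0.07 to 0.18 for nej. Only the nej estimate was smaller than its standard error.

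In trained flies 13.9% of 9237 genes were called between trxKD and control, and again 0 of the 8 enzymes by edgeR, DESeq2 or limma voom. None had an unadjusted p under 0.05 in edgeR, against 25.8% of all genes, and for none did the trxKD and control ranges lie apart, as they did for 17.8% of genes. HDAC1 had the smallest adjusted p of all estimates for the enzymes. It stood at 23.5, 26.4, 17 and 22.9 CPM in trained trxKD and 30.4, 25.9, 25.4 and 27.2 CPM in trained controls. Only trained trxKD replicate 2 reached into the control range, and the log2 fold change was -0.28 (SE 0.13, 95% interval -0.56 to 0.00, adjusted p = 0.196, edgeR). Without that library the estimate was -0.36 and passed the test (adjusted p = 0.083, edgeR), and without trained trxKD replicate 3 it was -0.17. Over all alternatives the adjusted p stayed at or above 0.083. The acetyltransferases Tip60 and chm were lower by estimate, at -0.19 (SE 0.12, adjusted p = 0.364, edgeR) and -0.16 (SE 0.10, adjusted p = 0.337, edgeR). Sirt1 averaged 79.5 ± 6.17 CPM in trained trxKD and 79.6 ± 2.93 CPM in trained controls (SD, n = 4 each). Of 12 Kenyon cell markers, 8 were called higher in trained trxKD than in trained controls. Estimates were lower in trained trxKD for ey (log2 fold change -0.06), dac (-0.05) and prt (-0.19), which were not called. The part of these markers in the enzyme values was not tested.

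The difference of the training effect between genotypes was tested in 1 fit of all 15 libraries. No gene was called (0% of 9749 by edgeR), with 1055 genes at an unadjusted p under 0.05 and 24 genes called by DESeq2. Without trained trxKD replicate 2 edgeR called 189. Among the enzymes the estimates, training effect in trxKD minus that in control, ran between -0.20 for Gcn5 and HDAC1 and 0.02 for nej, with 0 of 8 at an unadjusted p under 0.05 and 0 called by DESeq2 or limma voom. HDAC4 had the smallest p, with a difference of -0.15 (95% interval -0.32 to 0.03, adjusted p = 0.517, edgeR).

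The intervals bound how large a change could have gone unseen. Over the 8 enzymes and 5 comparisons, 37 of 40 intervals lay within 0.5 on the log2 scale in either direction and 40 of 40 within 1. The widest bound was 0.61, for HDAC1 in the difference of training effects, whereas for nej no interval reached beyond 0.18. A p above the threshold does not show that levels were equal, and the 3 intervals that passed 0.5 all belonged to HDAC1.

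**Figure D3:**
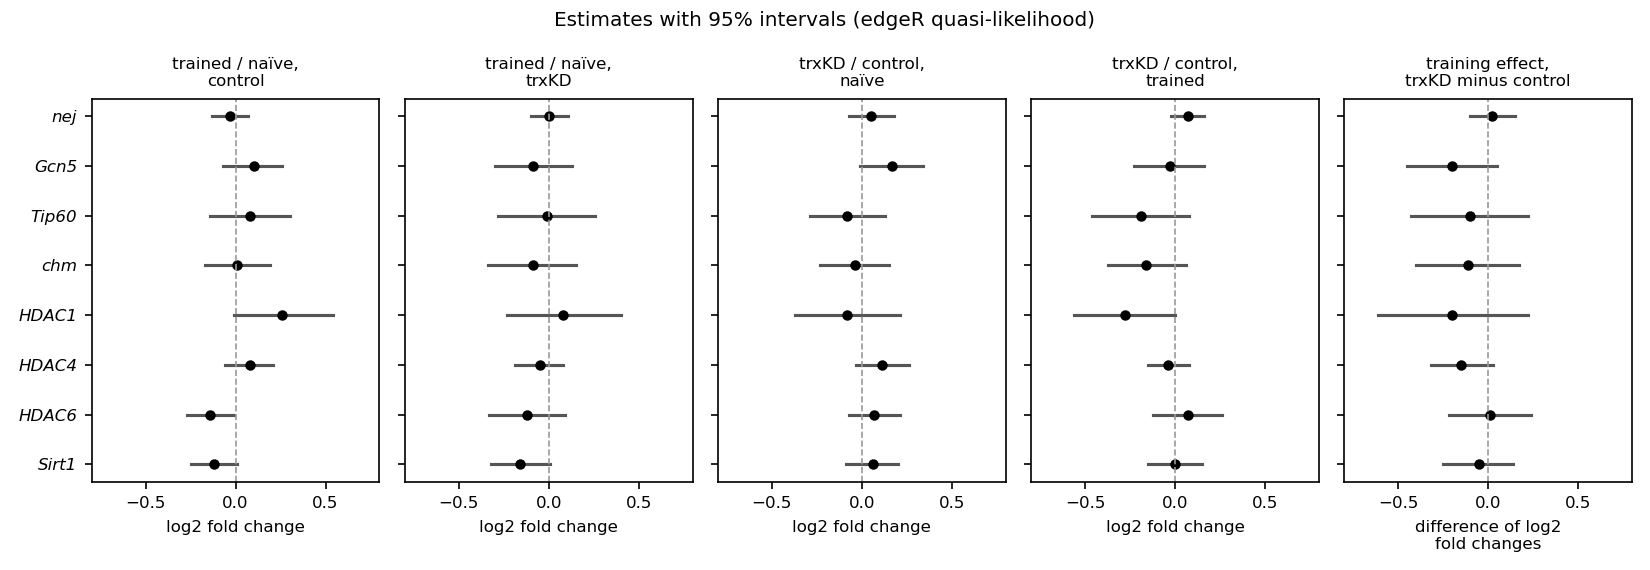
Log2 fold changes of the 8 measured enzymes (points) with 95% intervals (lines) in 4 comparisons, trained over naïve or trxKD over control, and the difference of training effects. The intervals of nej end within 0.18 of 0, and those of HDAC1 are the widest, reaching -0.61.

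Genes that work with these enzymes were read from 6 lists of 71 genes in all, of which 67 passed the filter on low counts (66 between trained trxKD and trained control). Of the genes left out, Ada2a and Ada3, subunits of the Gcn5 complexes, and MEP-1, a partner of Mi-2, had 0 counts in all 15 libraries and shared 29.5%, 1.99% and 89.4% of their exonic bases with other genes, and CG1894 had at most 8 counts. Training in controls gave calls in 3 of 67 (4.48%), near the 4.38% of all genes. The clearest concerned acetyl-CoA supply. ATPCL, the ATP citrate lyase that makes acetyl-CoA from citrate, stood at 339, 317, 310 and 314 CPM in trained controls and 424, 405, 432 and 375 CPM in naïve controls. The groups did not overlap, and ATPCL fell after training with a log2 fold change of -0.37 (SE 0.06, adjusted p = 0.0047, edgeR). AcCoAS, the acetyl-CoA synthetase that uses acetate, stood at 390, 382, 352 and 379 CPM in trained controls and 497, 543, 514 and 395 CPM in naïve controls. It fell as well, by a log2 fold change of -0.39 (SE 0.09, adjusted p = 0.0355, edgeR), with naïve control replicate 4 close to the trained range. The AcCoAS call was lost without trained control replicate 3 or replicate 4, where the adjusted p reached 0.124.

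In trxKD flies the same pair had lower values after training without passing the test. ATPCL stood at 325, 316, 285 and 298 CPM in trained trxKD and 360, 358 and 375 CPM in naïve trxKD, a log2 fold change of -0.25 (SE 0.06, adjusted p = 0.169, edgeR). AcCoAS stood at 393, 375, 342 and 373 CPM in trained trxKD and 436, 460 and 482 CPM in naïve trxKD, a log2 fold change of -0.31 (SE 0.06, adjusted p = 0.103, edgeR). The difference of the training effect between genotypes was 0.10 for ATPCL (adjusted p = 0.648, edgeR) and 0.07 for AcCoAS (adjusted p = 0.857, edgeR). Markers of other cell types moved in the same comparison. Of the 6 fat body and hemocyte markers tested, 2 were called lower after training in controls, apolpp with a log2 fold change of -0.48 (adjusted p = 0.0047, edgeR) and Lsp2 with -2.29 (adjusted p = 0.0019, edgeR), while Hml, Col4a1, vkg and NimC1 ran between -0.25 and 0.17 and did not pass. Their sum, most of it apolpp, was 3485 to 3741 CPM in trained and 4703 to 6570 CPM in naïve controls. Of the 7 photoreceptor markers tested, 7 had negative estimates, between -0.46 and -0.21, and 1 was called, inaD (adjusted p = 0.0332, edgeR), with sums of 7942 to 10051 CPM in trained and 8707 to 14740 CPM in naïve controls. The 6 glial markers tested had a median log2 fold change of -0.13, with Gs2 at -0.19 (adjusted p = 0.279, edgeR). In trxKD flies the sums overlapped, at 2900 to 4581 CPM in trained and 3814 to 4057 CPM in naïve libraries for fat body and hemocytes and at 7048 to 9397 CPM and 6919 to 12641 CPM for photoreceptors. The part of these markers in the ATPCL and AcCoAS values was not tested.

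Among the corepressor partners of HDAC1 and HDAC3, CoRest, a scaffold that joins HDAC1 to a histone demethylase, was the 1 gene of 18 called by training in controls (5.56%, near the 4.38% of all genes). It rose to 151, 142, 145 and 146 CPM in trained controls, against 121, 123, 132 and 132 CPM in naïve controls, a log2 fold change of 0.19 (SE 0.05, adjusted p = 0.093, edgeR). In trxKD flies it stood at 142, 151, 145 and 149 CPM after training and 124, 129 and 121 CPM in naïve libraries, a log2 fold change of 0.23 that did not pass (SE 0.06, adjusted p = 0.185, edgeR). The trained and naïve ranges did not overlap in either genotype, although the call in controls held in only 1 of 8 fits that each left out 1 library, with adjusted p up to 0.3 over all alternatives. Training in trxKD gave 0 calls among the 67 partner genes by edgeR, against 0.534% of all genes. An unadjusted p under 0.05 was found for 12 of 67, a larger share than the 12% of all genes. This difference in share was not tested. DESeq2 called 4 of the partner genes, and 244 genes in all, and limma voom 1 of the partner genes.

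Between the genotypes the clearest change was in Sirt6, a sirtuin that in mammals removes acetyl groups from histone H3. In naïve flies it fell to 3.17, 3.1 and 3.58 CPM in trxKD, against 5.49, 7.4, 4.83 and 6.98 CPM in controls, a log2 fold change of -0.90 (SE 0.18, adjusted p = 0.0153, edgeR). In trained flies it fell to 2.74, 3.42, 4.08 and 4.01 CPM in trxKD, against 7.27, 4.66, 7.49 and 5.93 CPM in controls, a log2 fold change of -0.83 (SE 0.19, adjusted p = 0.0278, edgeR). All 7 trxKD libraries lay below all 8 control libraries, and the call held in every fit that left out 1 library, 7 in naïve and 8 in trained flies. Its level was low, with 57 to 184 counts per library.

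Sirt7, another sirtuin, fell in trained trxKD flies, at 12, 10.7, 8.56 and 9.56 CPM against 15.4, 14.4, 13.8 and 13.9 CPM in trained controls, a log2 fold change of -0.49 (SE 0.12, adjusted p = 0.0337, edgeR). In naïve flies it stood at 13.3, 14.7 and 12.6 CPM in trxKD and 14.1, 12, 12.1 and 12.7 CPM in controls, with overlapping ranges. The difference of the training effect between genotypes was -0.58 for Sirt7 (SE 0.16, adjusted p = 0.363, edgeR), so the contrast between naïve and trained flies did not pass its own test. HDAC11, Sirt2 and Sirt4, the other deacetylases listed, passed no test. Sirt4 shares 78.1% of its exonic bases with other genes and had at most 45 counts.

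Single partners of the acetyltransferases were called between genotypes in trained flies, at a share near that of all genes (13.9%). Nipped-A, a large scaffold found in both SAGA and the Tip60 complex, rose to 332, 339, 410 and 365 CPM in trained trxKD, against 294, 295, 295 and 303 CPM in trained controls. Its log2 fold change was 0.28 (SE 0.07, adjusted p = 0.0295, edgeR), and the ranges did not overlap. Brd8, a bromodomain subunit of the Tip60 complex, fell to 12.2, 12.3, 9.7 and 11.2 CPM in trained trxKD, against 17.7, 15, 16.3 and 16.3 CPM in trained controls. Its log2 fold change was -0.53 (SE 0.11, adjusted p = 0.0203, edgeR). The calls of Nipped-A, Brd8 and Sirt7 held in all 8 fits that left out 1 library. Those of Nipped-A and Brd8 also held in all 9 other alternatives. Sirt7 lost its call in 1 of these, a genotype term over both treatments (adjusted p = 0.163, edgeR). In naïve flies Brd8 was at 13.7 ± 0.811 CPM in trxKD (SD, n = 3) and 14.9 ± 2.25 CPM in controls (SD, n = 4), with overlapping ranges. For Brd8 the difference of the training effect between genotypes did not pass its own test (-0.41, SE 0.17, adjusted p = 0.428, edgeR).

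The Tip60 list thus held 1 higher and 1 lower call of 14 in trained flies (14.3%), and the list of SAGA and ATAC genes 2 higher and 1 lower of 20 (15%), against 13.9% of all genes. Besides Nipped-A these were Taf12, a histone-fold subunit shared by SAGA and TFIID, which rose to 47.6, 47.3, 60.6 and 64.5 CPM in trained trxKD, against 39.3, 42.2, 43.4 and 40.8 CPM in trained controls (log2 fold change 0.41, SE 0.11, adjusted p = 0.0422, edgeR), and Spt3, a SAGA subunit, which fell to 4.09, 5.28, 2.19 and 3.76 CPM, against 6.09, 7.2, 5.05 and 6.11 CPM in trained controls (log2 fold change -0.68, SE 0.23, adjusted p = 0.0958, edgeR). The Taf12 call was lost without trained control replicate 2 or 4 or trained trxKD replicate 4. The Spt3 call held in 1 of 8 such fits. MBD-like, a methyl-CpG-binding-domain protein of the NuRD corepressor complex, rose to 44.5, 40.5, 49.8 and 44.4 CPM in trained trxKD, against 34.4, 34, 36.7 and 37.4 CPM in trained controls, a log2 fold change of 0.33 (SE 0.08, adjusted p = 0.0321, edgeR), and lost its call without trained control replicate 2. The Taf12 and MBD-like calls were also lost with 1 genotype term over both treatments. In naïve flies the log2 fold changes were -0.28 for Taf12 (adjusted p = 0.263, edgeR), -0.11 for Spt3 (adjusted p = 0.74, edgeR) and -0.01 for MBD-like (adjusted p = 0.976, edgeR). The difference of the training effect between genotypes did not pass for Taf12 (0.69, adjusted p = 0.363, edgeR), Spt3 (-0.57, adjusted p = 0.497, edgeR) or MBD-like (0.34, adjusted p = 0.443, edgeR).

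**Figure D4:**
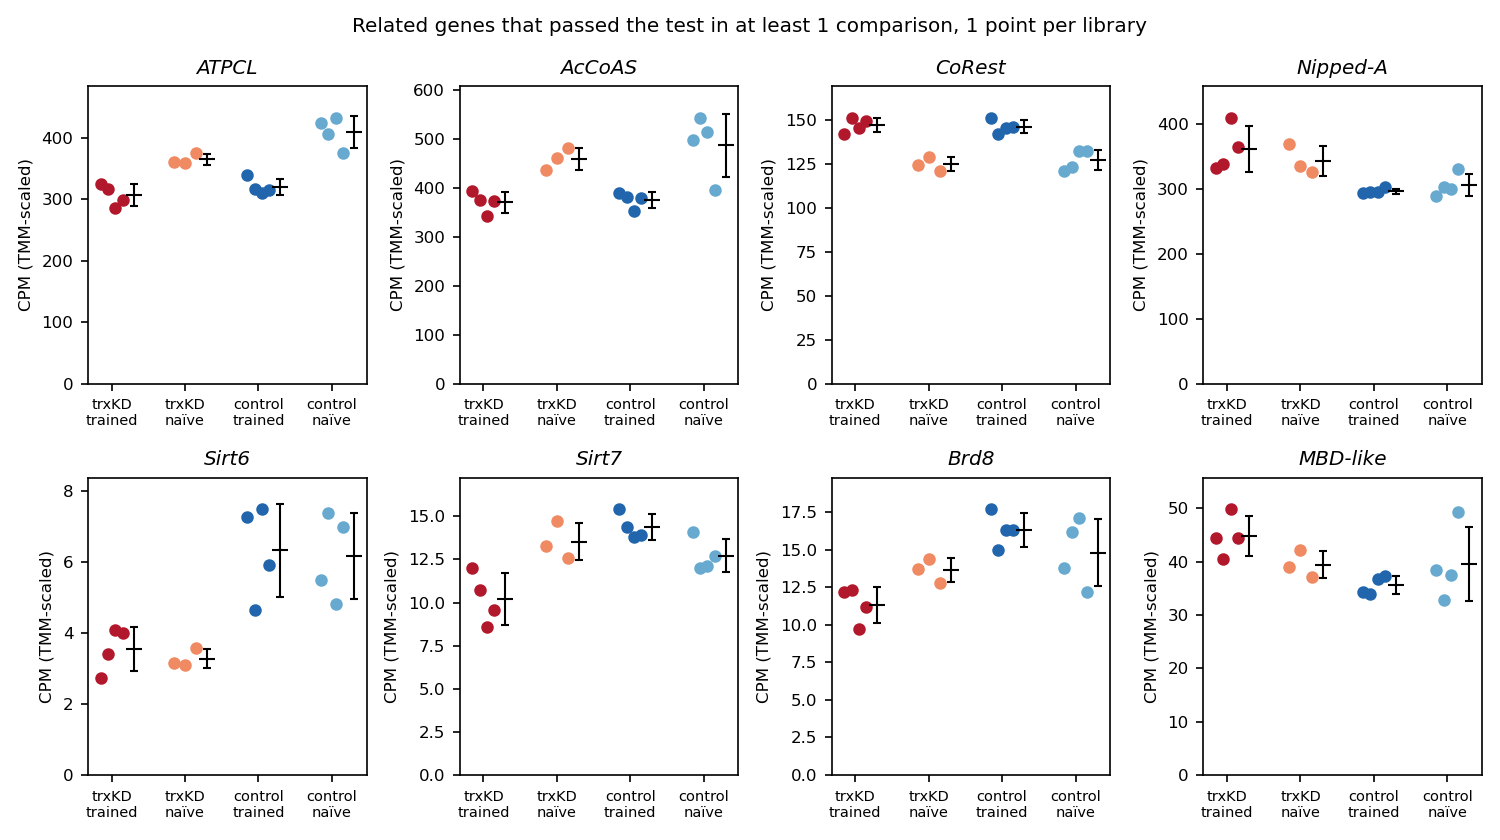
TMM-scaled CPM of 8 related genes that passed the test in at least 1 comparison (linear axes from 0), 1 point per library in 4 groups, with group mean and SD as a bar beside the points. Sirt6 lies at 2.74 to 4.08 CPM in trxKD and at 4.66 to 7.49 CPM in control libraries, and ATPCL at 285 to 375 CPM in trxKD and 310 to 432 CPM in control libraries.

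In naïve flies the calls among partner genes numbered 4 of 67 (5.97%), below the 14.2% of all genes. Besides Sirt6 these were Elp3, the acetyltransferase subunit of Elongator, at 7.23, 8.33 and 7.21 CPM in trxKD and 5.66, 5.45, 5.38 and 5.91 CPM in controls (log2 fold change 0.44, adjusted p = 0.0533, edgeR), the SAGA deubiquitinase not, with a log2 fold change of 0.28 (adjusted p = 0.085, edgeR), and mof, the acetyltransferase of histone H4 in dosage compensation, with a log2 fold change of -0.29 (adjusted p = 0.0954, edgeR). Each of these 3 calls held in 1 of 7 fits that left out 1 library. In trained flies 7 of 66 genes (10.6%) were called, against 13.9% of all genes. For the partner genes together the median log2 fold change was -0.08 in trained flies and 0.00 in naïve flies, against -0.03 and -0.02 over all genes. The difference of the training effect between genotypes gave 0 calls among the 67 partner genes by edgeR, DESeq2 or limma voom, with 7 at an unadjusted p under 0.05 in edgeR, near the 10.8% of all genes.

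Across the 15 libraries each enzyme was matched to the gene whose log2 CPM followed its own most closely, out of 5605 genes with a mean of at least 10 CPM. The closest genes were upSET for nej (r = 0.91), Sik2 for HDAC1 (r = 0.92), ninaB for HDAC6 (r = 0.90), CG10265 for Tip60 and Prp38 for chm (r = 0.89 each), Ugt37D1 for Sirt1 (r = 0.87), px for HDAC4 (r = 0.86) and Spec2 for Gcn5 (r = 0.77). These correlations (Pearson, n = 15 libraries) are the highest of many and are descriptive, and the libraries share groups and depth. The gene ninaB acts in carotenoid cleavage for visual pigment, and the photoreceptor marker sum spanned 6919 to 14740 CPM over the same libraries. No correlation of ninaB or HDAC6 with that sum was computed, and a part of photoreceptor RNA in the HDAC6 values was not tested.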

How the data were processed

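Mushroom body nuclear RNA-seq libraries (n = 15) were made with the Nugen Ovation Drosophila RNA-Seq System. The authors deposited raw counts per gene for each library. The submitters' processing notes name STAR 2.5.3a, HTSeq 0.7.1 and dm6; their strand setting and annotation release are not given in the sources used here. A row for the nuclear tag (0.437 to 0.681% of counts) was left out of totals and tests. Of 17559 genes, 17253 matched the BDGP6.54 annotation, which gave positions and exon lengths.

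Counts were fitted with edgeR 4.0.16 in R 4.3.3 (filterByExpr with a minimum count of 10, TMM, quasi-likelihood test, Benjamini-Hochberg over all genes tested, called at adjusted p under 0.1), with only the groups compared in each fit and all 4 groups for the difference of training effects. Standard errors and 95% intervals come from the quasi-likelihood F statistic. The code was tested on simulated data. Alternatives were DESeq2 1.42.0, limma voom 3.58.1, other scalings, no filter, 1 fit of all libraries, a block on replicate number, an adjusted p of 0.05 and leaving out each library; terms for training or genotype over all 15 libraries were added after seeing the data. Fold changes are those edgeR gives with its prior count. The labels call the libraries replicates without saying more on their origin, so p-values measure the spread between these pools. Replicates within groups differed beyond sampling noise in all 21 pairs (chi-square per degree of freedom at least 7.59). Pairs with naïve control replicate 4 had 48.7 to 53.8, whereas the other naïve control pairs had 7.59 to 12.4. Trained trxKD replicate 3 had 56 and 49.6 against replicates 1 and 2, and 15.7 against replicate 4.

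The 9 enzymes, the partner lists and the cell type markers were chosen with earlier results of these data known; 2 markers were matched under their current names, rut and Trhn. Named genes were the 9 enzymes, trx, partner genes with adjusted p under 0.1 (at most 4 per list and comparison, by smallest p) and, for each enzyme, the gene with the highest Pearson r over the libraries; cell type markers were named after their values were seen, as were partner genes that passed no test.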

Additional observations from a re-analysis of the deposited data

Results flagged for a closer look

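HDAC1 stood at 16.5 CPM in naïve control replicate 4, far below the other 3 naïve controls, which lay between 23.8 and 25 CPM. The gap to the nearest library was 0.853 of the group's whole range, above Dixon's 95% critical value of 0.829 for 4 samples. Of 24 sets of 4 libraries tested over the 8 measured enzymes this was the 1 flagged, and chance flags about 1 in 20 sets. The same library held the lowest HDAC4 and Sirt1 values of its group, at 235 and 79.8 CPM. It also stood apart from its group over all genes compared. Its pairs had a chi-square per degree of freedom of 48.7 to 53.8, against 7.59 to 12.4 for the other naïve control pairs.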

How the results depend on the processing

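Of 704 estimates for the 8 measured enzymes under an alternative, 1 passed the threshold: HDAC1 in trained trxKD against trained control without trained trxKD replicate 2. The number of enzymes called when 1 library was left out was 0 in the other 4 comparisons and 0 to 1 in this one. Counts over all genes moved more. Training in control flies gave 246 calls with the replicate block, and 230 (without trained control replicate 4) to 711 (without naïve control replicate 4) when 1 library was left out, against 405. Training in trxKD flies gave 244 with DESeq2, 91 with no filter, 125 with all 15 samples in 1 fit, 18 at an adjusted p under 0.05, 470 with 1 training term over both genotypes (chosen after seeing the data), and 4 (without naïve trxKD replicate 2) to 160 (without trained trxKD replicate 2) when 1 library was left out, against 50. The knockdown in naïve flies gave 703 at an adjusted p under 0.05 and 330 (without naïve trxKD replicate 2) to 2558 (without naïve control replicate 4) when 1 library was left out, against 1333. In trained flies it gave 721 at an adjusted p under 0.05 and 495 (without trained control replicate 4) to 1808 (without trained trxKD replicate 1), against 1284. A genotype term over both treatments, chosen after seeing the data, gave 2455 calls. The difference of training effects gave 24 calls with DESeq2 and 0 to 189 (without trained trxKD replicate 2) when 1 library was left out, against 0. The cause of these moves was not tested.

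The main fits did not pair same-numbered libraries, and the labels do not say whether they belong together. Their deviations correlated at -0.12 to 0.14 over 14 pairs, with 1 above 0.1, which cannot settle whether they were paired. With the replicate block training in trxKD flies gave 8 calls, training in controls 246 and the knockdown in naïve flies 2712 over all genes; none of the 8 enzymes was called, and of the partner calls CoRest was lost (adjusted p = 0.3, edgeR). Scaling by library size alone put the median log2 fold change of all genes at -0.10 between trained trxKD and trained control, against -0.03 with TMM. Depth limits genes with few counts most, such as Sirt4, Sirt6 and Spt3; HDAC3 has no value at any depth with this counting.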
